A study of Arabidopsis thaliana with 8 samples.

Results

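The transcripts described here were higher after growth on selenate in both organs of Arabidopsis seedlings, roots and shoots alike. They were chosen from the measured changes: on the log2(signal + 25) scale the selenate mean had to exceed the control mean by at least 0.7 in roots and in shoots. In each organ both selenate arrays also had to lie above both control arrays, and the signal had to reach 100 on at least 2 of the 8 arrays. Of 22810 probe sets on the array 91 met these conditions. Left out were 9 that list a mitochondrial gene and 4 set aside by name (BGLU28, RING1, CML38 and PUB19), which left 78 members. A probe set is a group of probes on the array that measures one transcript or a few very similar ones.

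RNA of roots and of shoots was measured with and without 40 µM selenate in the medium, with 2 arrays in each of the 4 groups. The plants, all of the ecotype WS, were 10 days old and stood on vertical plates of half-strength MS medium, and no further treatment or genotype is named. The description field of the shoot arrays speaks of roots, while their titles and sources say shoots, which the markers below bear out. Since separate cultures are not mentioned for replicate arrays, any p-value refers to the spread among the arrays, which may be technical. Roots and shoots are whole organs, in which a higher level per cell and a larger share of the cells that hold a transcript cannot be told apart.

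Selenate is a selenium oxyanion that resembles sulfate. Plants take it up through sulfate transporters and reduce it along the sulfate assimilation pathway, and the selenium amino acids that result can replace cysteine and methionine in proteins. Genes that respond to a shortage of sulfur, to oxidative stress and to misfolded proteins are known to respond to selenium compounds in plants.

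The organ labels were borne out by marker genes: all 8 tested green-tissue genes were higher in control shoots than in control roots and all 3 tested root genes were lower (limma, adjusted p under 0.05). The summed signal of the 8 green-tissue genes was 2827 and 2329 in control roots, 1629 and 1505 in selenate roots, and 156629 to 165958 in shoots. Replicates differed more in shoots, where the SD of the difference between them was 0.51 (log2) in controls and 0.41 under selenate, against 0.26 and 0.28 in roots. The GAPDH control probe sets, whose 3' over 5' ratio measures RNA integrity, gave ratios between 0.783 and 0.868 for roots. In shoots the ratio was 2.03 and 10.4 for controls and 7.34 and 2.95 under selenate. Its part in the shoot changes was not tested. Without shoot control 2 and shoot selenate 1, the shoot arrays with the higher ratio in each group, 110 probe sets met all conditions, of which 63 were among the 78 members. That setting leaves 1 array in each shoot group and uses values that also chose the members.

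The 78 members fall into 5 kinds by what the annotation lists for them. A single nuclear gene was listed for 25, and these are described one by one below. A further 4 list loci in a stretch of chromosome 2 that holds a copy of mitochondrial DNA, 1 lists a plastid gene, 1 lists several genes, and 47 have no listed gene. The annotation places the 25 genes, and the loci of the member that lists several, on nuclear chromosomes. Whether an unlisted member is encoded in the nucleus could not be checked. Of these 47, 3 carry probe numbers within a run of 128 probe sets in which all 91 listed ones belong to organelle genes or to that stretch of chromosome 2.

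**Figure D1:**
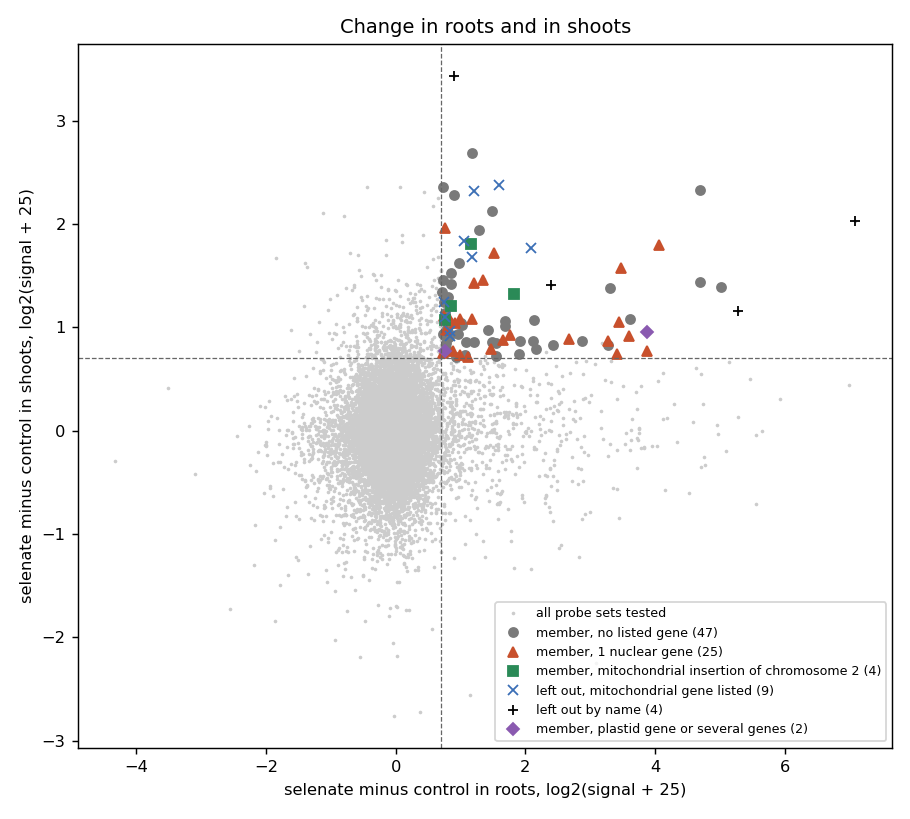
Change with selenate in roots (horizontal axis) against the change in shoots (vertical axis), both as differences of log2(signal + 25), for every probe set tested. Dashed lines mark 0.7, colours mark the members and the probe sets left out, and the members spread further along the root axis (up to 5.02) than along the shoot axis (up to 2.69).

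Rising in both organs was less common than rising in roots alone or in shoots alone. It was more common than falling in both organs or moving in opposite directions. In roots 756 probe sets met the conditions for a rise, 4.71% of the 16053 tested, and in shoots 518 did, 3.23%. The 91 that met them in both organs are 0.567% of those tested, 12% of the root list and 17.6% of the shoot list. With the same limits turned to falls, 70 probe sets fell in both organs, while 39 rose in roots and fell in shoots and 31 did the reverse. These counts describe the choice of members and carry no test.

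Among the 78 members the change in roots had a median of 2.26-fold and ran from 1.63-fold to 32.4-fold. In shoots the median was 2.02-fold, with a range from 1.64-fold to 6.47-fold. The root change was the larger one in 41 members and the shoot change in 37, and 22 at least doubled in both organs. Over all probe sets tested the median change was -0.02 (log2) in each organ. All fold changes are ratios of signal + 25, which understates the change of weak transcripts.

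The 25 nuclear genes are given by role, with the signal on each array. AT1G12030, which belongs to the genes that respond to sulfur shortage, had the largest smaller change of the 25, meaning the change in the organ where a gene rose less. Its signal was 4.6 and 5.8 in control roots and 445 and 518 in selenate roots, and 32.8 and 26.0 in control shoots against 188 and 142 in selenate shoots. That is 16.7-fold in roots and 3.47-fold in shoots. It was all but unmeasured in control roots, so its root fold depends on the pseudocount: the log2 change was 4.06 as reported, 2.46 with a pseudocount of 100 and 5.57 with one of 5. In shoots it was 1.80, 1.03 and 2.30.

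A pair of members encode transport proteins. AT3G05400, a sugar transporter of the major facilitator superfamily, gave 126 and 156 in control roots and 1888 and 1760 in selenate roots. In shoots it went from 203 and 208 to 689 and 638. These are rises of 11.2-fold and 2.99-fold, and the replicates of each group lay close together. AT1G61890, an efflux carrier of the MATE family, whose members export organic compounds and toxins, had signals of 1686 and 1746 in control roots and 5222 and 5659 in selenate roots, a 3.14-fold rise. Its shoot signals were 434 and 599 in controls and 995 and 929 under selenate, a 1.84-fold rise.

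Another 4 members encode regulators or signalling proteins, grouped here only for order. AT2G22760, a basic helix-loop-helix transcription factor, rose 9.70-fold in roots and 1.83-fold in shoots. It had 70.4 and 36.0 in control roots and 671 and 762 in selenate roots. In shoots its 4 signals were 1.6, 32.8, 49.0 and 44.2, controls first, so that 1 control array lay near the selenate arrays. AT1G22810, a transcription factor of the AP2/ERF family, rose 6.39-fold in roots, from 48.6 and 52.2 to 476 and 437. Its shoot signals were 7.8 and 3.8 in controls and 42.3 and 23.4 under selenate. AT3G47480, a calcium-binding EF-hand protein, was weak in both organs and roughly doubled in both, by 1.99-fold and 2.12-fold. It gave 21.0 and 24.2 in control roots, 66.7 and 72.9 in selenate roots, 36.8 and 57.4 in control shoots and 119 and 134 in selenate shoots. AT5G60250, a zinc finger protein of the RING type, rose 1.79-fold in roots, from 31.5 and 8.9 to 50.2 and 56.4, and 2.10-fold in shoots, from 43.3 and 43.9 to 135 and 105.

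A further 5 members, put together here only for order, have products linked to immunity or the cell surface. AT2G27080, of the NHL and LEA-related membrane protein family, rose 10.9-fold in roots, from 514 and 327 to 4836 and 4622. Its shoot signals stayed low, at 25.1 and 6.3 in controls and 47.1 and 67.6 under selenate. AT2G17660, which encodes a small protein with the RIN4 domain of plant immunity, rose 10.6-fold in roots, from 14.7 and 3.9 to 404 and 276, and 1.68-fold in shoots, from 14.9 and 6.1 to 30.8 and 37.4. AT3G10930, a short protein related to the peptide signal IDA, rose 12.1-fold in roots, from 65.9 and 70.9 to 1135 and 1084. In shoots its control signals of 0.6 and 3.3 lay far under the pseudocount of 25, and its selenate signals of 19.9 and 32.6 lay near it. Its shoot change therefore depends on the pseudocount: it was 0.92 (log2) as reported, 0.31 with a pseudocount of 100 and 2.17 with one of 5. AT2G20142, which has the TIR domain of plant immune receptors, rose 2.16-fold in roots, from 49.9 and 65.4 to 136 and 170. Its shoot signals were 3.7 and 33.4 in controls and 36.8 and 47.8 under selenate, so that the nearest arrays of the groups all but touched. AT4G18280, related to glycine-rich cell wall proteins, was well measured in both organs. It rose 3.41-fold in roots, from 124 and 133 to 489 and 508, and 1.91-fold in shoots, from 219 and 216 to 470 and 408.

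Chaperones were represented by a pair of genes. AT5G51440, a small heat-shock protein of mitochondria, rose 2.77-fold in roots, from 178 and 150 to 481 and 512. In shoots it rose 1.73-fold, from 74.1 and 51.7 to 106 and 149. AT2G20560, a co-chaperone of the DnaJ type, rose 1.98-fold in roots, from 354 and 375 to 813 and 683, and 1.66-fold in shoots, from 171 and 193 to 380 and 264. The shoot change of AT2G20560 lies close to the limit of 0.7 for membership.

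Among enzymes, ATPases and a stress protein, the organ with the larger change varied. PDC2, which encodes pyruvate decarboxylase, the enzyme that opens ethanol fermentation, rose 2.24-fold in roots, from 132 and 194 to 428 and 357, and 2.11-fold in shoots, from 53.7 and 84.3 to 163 and 180. AT3G03270, a universal stress protein induced by low oxygen, was the clearest case of a larger change in shoots. It rose 3.88-fold there, from 425 and 524 to 2015 and 1800, and 1.69-fold in roots, from 1415 and 1169 to 2253 and 2128. AT1G43910 and AT5G17760 encode ATPases of the AAA type. AT1G43910 rose 2.56-fold in roots, from 302 and 280 to 796 and 769, and 2.76-fold in shoots, from 111 and 108 to 363 and 332. AT5G17760 rose 1.67-fold in roots, from 365 and 457 to 645 and 757, and 2.16-fold in shoots, from 55.2 and 27.6 to 106 and 126. AT3G54150, a methyltransferase that uses S-adenosylmethionine, rose 1.84-fold in roots, from 50.6 and 57.4 to 120 and 120. Its shoot signals of 27.9 and 23.2 in controls and 87.6 and 40.5 under selenate came with widely spaced selenate arrays.

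Other members have a less certain role. AT4G01870, related to the bacterial TolB protein, was among the best measured: it rose 2.31-fold in roots, from 1959 and 1676 to 4435 and 3997, and 2.70-fold in shoots, from 467 and 492 to 1262 and 1412. AT2G28400, of the S40 family linked to leaf senescence, rose 2.87-fold in roots, from 320 and 369 to 1004 and 1061, and 3.30-fold in shoots, from 18.2 and 4.9 to 66.3 and 129. AT2G02700, a protein with cysteine- and histidine-rich C1 domains, rose 1.66-fold in roots, from 83.6 and 116 to 198 and 165, and 1.69-fold in shoots, from 12.3 and 18.1 to 33.7 and 52.8. AT4G27652, for which no role is given here, had the largest gap between the organs. It rose 14.6-fold in roots, from 372 and 355 to 5353 and 5946, but its shoot signals were 51.4 and 8.4 in controls and 57.3 and 65.3 under selenate, where 1 control array almost reached the selenate arrays. AT1G10875, also without a role here, rose 1.89-fold in roots, from 30.9 and 74.0 to 126 and 105, and 2.06-fold in shoots, from 5.5 and 5.5 to 20.1 and 62.3. AT3G17110, annotated as a transcribed pseudogene, rose 1.71-fold in roots, from 227 and 183 to 288 and 464, and 1.97-fold in shoots, from 23.1 and 8.6 to 50.0 and 58.7.

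**Figure D2:**
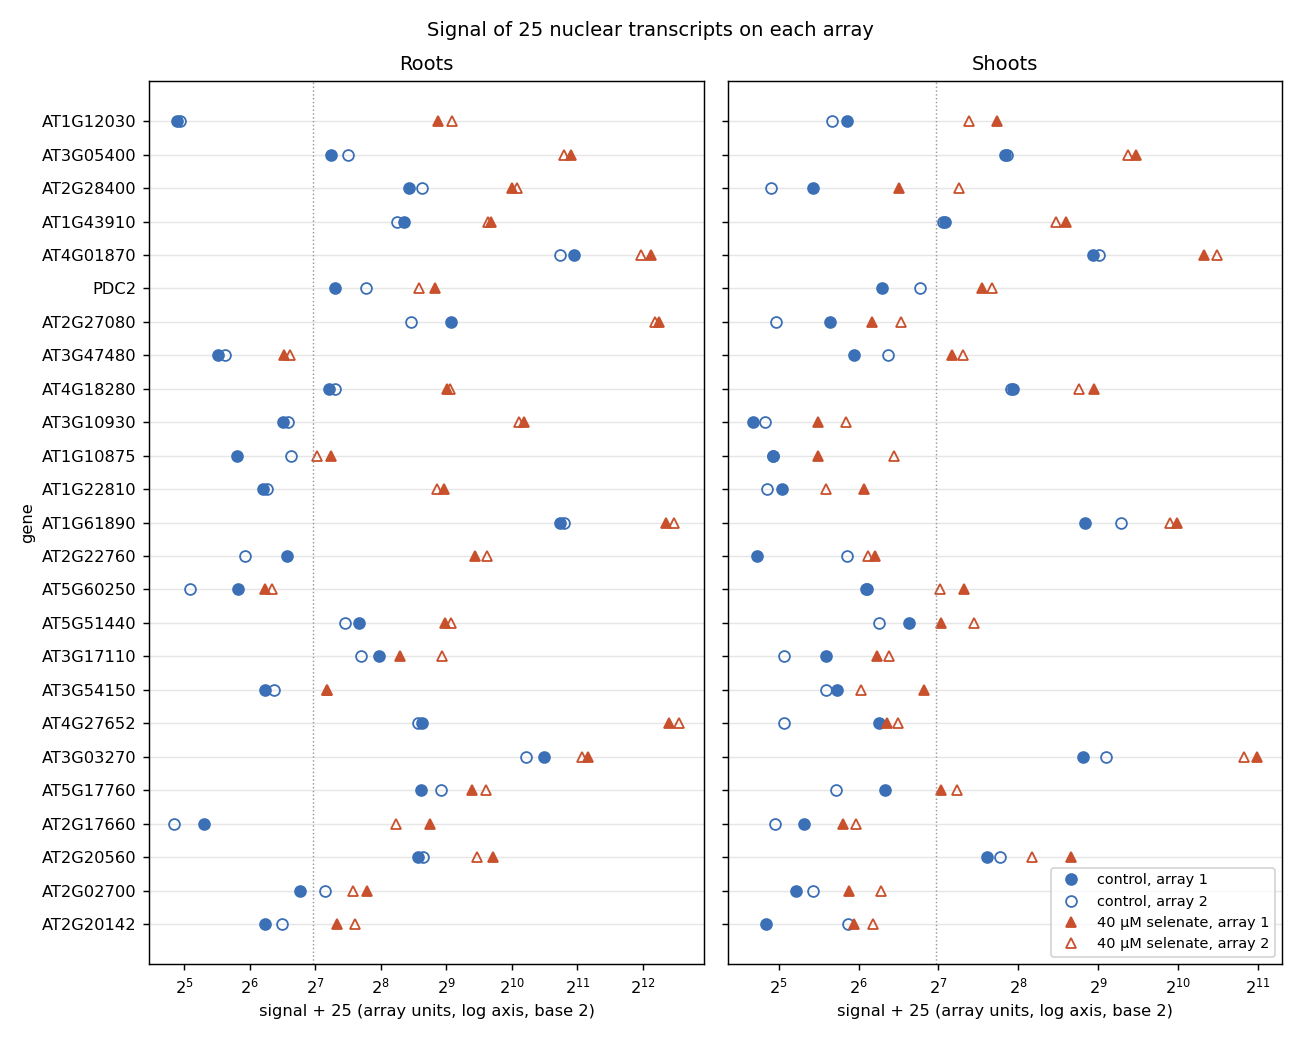
Signal + 25 (log axis) of the 25 nuclear genes on each array, roots on the left and shoots on the right, ordered by the smaller of their changes; circles are controls, triangles are selenate arrays, and the dotted line stands at a signal of 100. For 11 genes all 4 shoot arrays lie left of that line, against 2 genes in roots.

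Signals in shoots were often close to the limit of what the array measures. In 11 of the 25 genes all 4 shoot arrays were under 100, and in 12 at least 1 control shoot array was under 25, the pseudocount. In roots 2 genes had all 4 arrays under 100 and 4 had a control array under 25. Only 8 of the 25 met the conditions with a pseudocount of 100, namely AT1G12030, AT3G05400, AT2G28400, AT1G43910, AT4G01870, AT4G18280, AT1G61890 and AT3G03270, and 24 of the 78 members did. Among the 23 of the 25 genes that still reached 100 on 2 arrays without the shoot arrays of higher GAPDH ratio, 5 no longer met the conditions. Their shoot changes were then 0.56 for AT1G22810, 0.24 for AT4G27652, 0.31 for AT3G54150, 0.65 for AT2G17660 and 0.56 for AT2G20560.

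The conditions were applied under 16 other settings: other pseudocounts, filters and normalizations, and single arrays or the pair with higher ratios left out. AT1G12030, AT3G05400, AT2G28400, AT1G43910, AT4G01870 and AT4G18280, 6 of the 25 genes, met the conditions in all 16. All settings reuse the arrays that chose the members, so this is a description and not separate support. Over these settings, where it passed the signal minimum, AT4G01870 kept a change between 1.09 and 1.32 (log2) in roots and between 1.31 and 1.55 in shoots. AT1G43910 ranged from 1.18 to 1.42 and from 1.09 to 1.62. AT2G28400, whose control shoot signals were under the pseudocount, ranged from 1.35 to 1.61 and from 0.81 to 2.69. At the other end AT4G27652 ranged from 0.17 to 1.37 in shoots, AT2G20142 from 0.20 to 1.36, and AT3G10930 from 0.31 to 2.17.

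**Figure D3:**
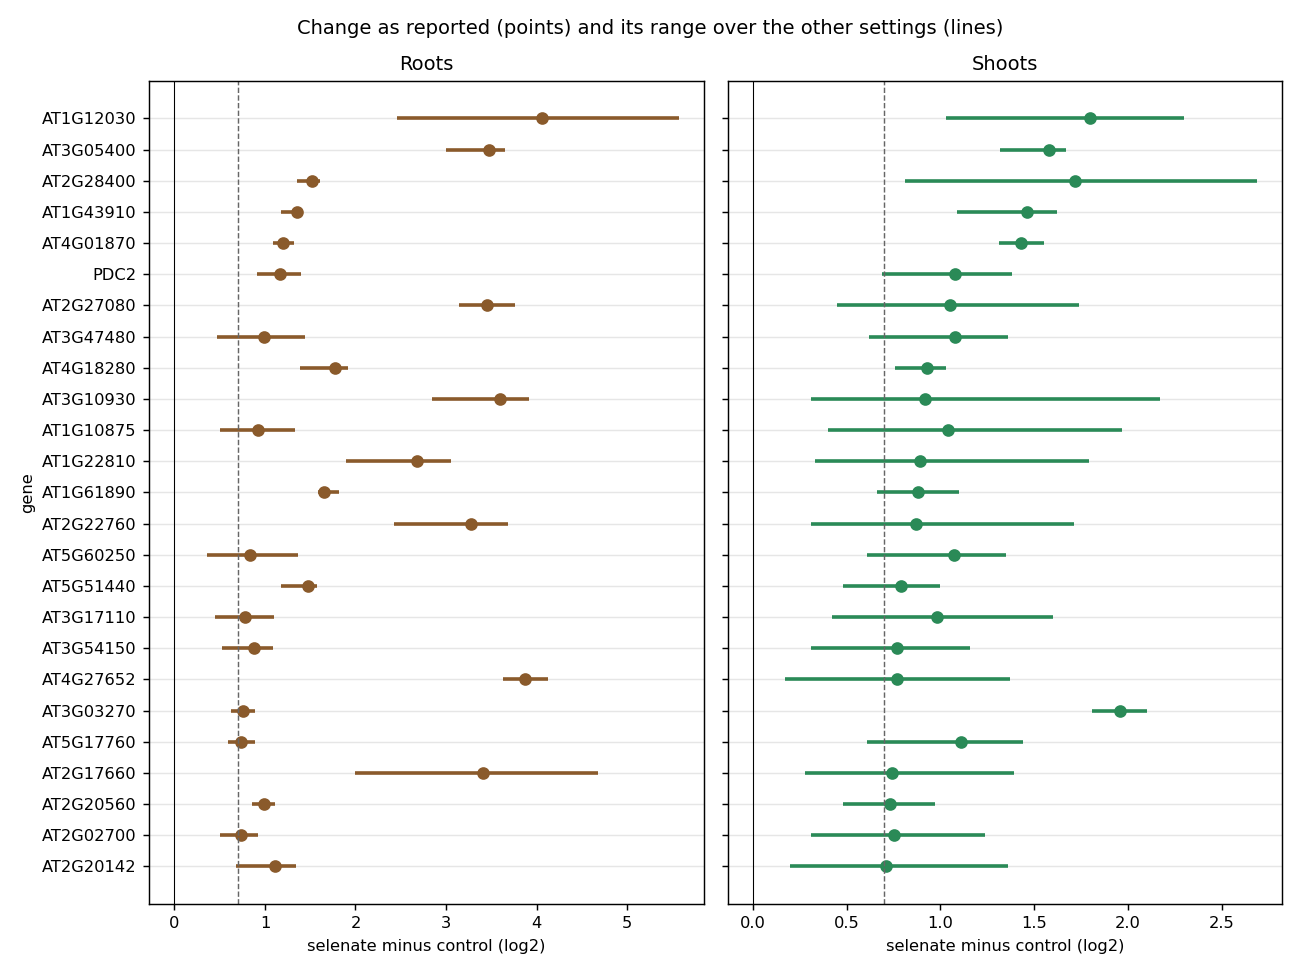
Selenate minus control (log2) in roots and shoots for the 25 nuclear genes as reported (points), with the lowest and highest value over the 16 other settings (lines); the dashed line is the limit of 0.7. In shoots the lines are long for genes of low signal, such as AT3G10930 (0.31 to 2.17), and short for AT4G01870 (1.31 to 1.55). The longest line of all is that of AT1G12030 in roots (2.46 to 5.57).

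The log2 changes of the organs differed by under 0.5 in 13 of the 25 genes and by more in the rest. In 6 the root change exceeded the shoot change by 2 or more, most in AT4G27652 (by 3.10), AT3G10930 (2.68) and AT2G17660 (2.66). The shoot change was the larger one in 10 genes, most in AT3G03270, whose root change minus shoot change was -1.20, and AT5G17760, where it was -0.37. Because both changes were used to choose the members, the difference between them was not tested.

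The level in control shoots against control roots was not itself a condition, but the choice of members bears on it. The signal minimum was reached on 2 arrays in both organs by 11 of the 25 genes, in roots alone by 12 and in shoots alone by 2. A gene that passed through 1 organ alone had more arrays at the minimum there, but these could be selenate arrays. Its control level did not have to be higher in that organ. Control arrays also entered the changes that chose the members. Of the 25 genes, 18 were lower in control shoots, 3 were higher and 4 were not called (limma, adjusted p under 0.05), where over all 16053 probe sets tested 37.5% were lower and 25.7% higher. Nothing is read from the count over the 25. Among the 11 that reached the minimum in both organs, 8 were lower and 3 higher. The balance also depends on scaling: the median over all probe sets was -0.21 (log2) as reported and 0.04 after median centring.

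Tests by gene are given for those 11. In shoots AT5G17760, AT5G51440, PDC2 and AT1G12030 reached 100 on the selenate arrays only, so their comparison rests on control shoot signals under the minimum. AT5G17760 was 6.68-fold lower in control shoots than in control roots (log2 difference -2.74 ± 0.24 SE, limma adjusted p = 8.72e-06), with a range of -3.22 to -1.85 over other settings. AT4G01870 was 3.64-fold lower (limma adjusted p = 5.77e-06), AT1G61890 3.25-fold (2.43e-05), AT3G03270 2.64-fold (7.72e-05) and AT1G43910 2.34-fold (0.000126). AT5G51440, PDC2 and AT2G20560 were lower by 2.16-fold, 2.00-fold and 1.88-fold (limma adjusted p = 0.00191, 0.00562 and 0.00348), and the call of PDC2 was lost without root control 2 (0.0595). AT4G18280 was 1.58-fold higher in control shoots (limma adjusted p = 0.00672). AT3G05400 was 1.39-fold higher (limma adjusted p = 0.0298), a call that was lost without root control 1 (0.206), root selenate 1 (0.0538), root selenate 2 (0.0534) or shoot control 2 (0.0581), with a pseudocount of 100 (0.0505), with only the control arrays (0.0961) and with array weights (0.0706). AT1G12030 was higher by 0.85 ± 0.23 (log2, limma adjusted p = 0.00993), but its control root signals lay under the pseudocount, and the difference was 0.30 with a pseudocount of 100 (adjusted p = 0.0861).

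The levels under selenate entered the rule directly, so they are given as values. Counts of calls on them are a description and not a test of the members. AT4G27652 had 5353 and 5946 in selenate roots and 57.3 and 65.3 in selenate shoots, and AT2G27080 had 4836 and 4622 against 47.1 and 67.6. AT3G05400 and AT1G12030, both higher in control shoots as reported, had lower signals in selenate shoots than in selenate roots on every array. AT3G03270, lower in control shoots, had 2253 and 2128 in selenate roots and 2015 and 1800 in selenate shoots. By the same threshold as in controls, 21 of the 25 genes lay lower in selenate shoots and 2, AT3G47480 and AT5G60250, higher, beside 39.5% and 25.6% of all probe sets tested. These counts describe the chosen members, of which 12 reached the signal minimum in roots alone and the 2 higher ones in shoots alone. Nothing is read from these counts.

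**Figure D4:**
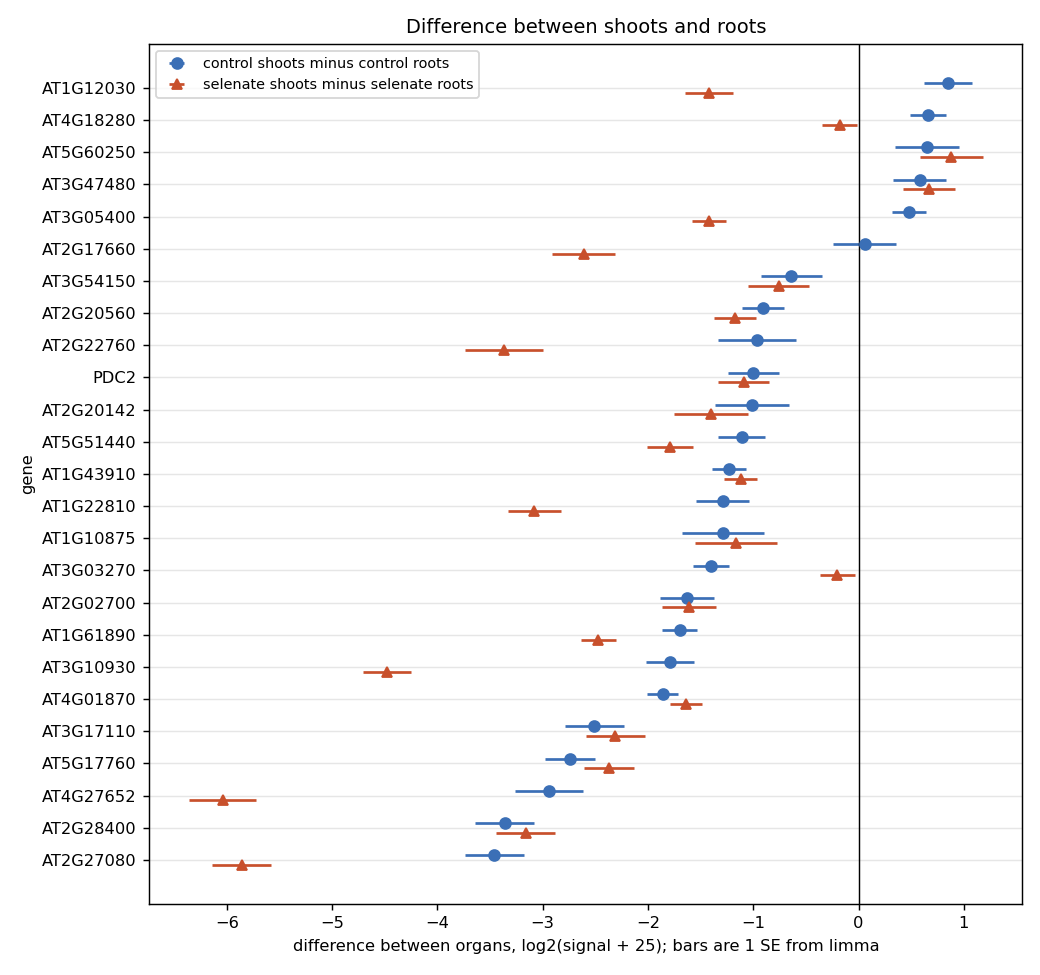
Shoots minus roots, as a difference of log2(signal + 25) with 1 SE from limma, for controls (circles) and selenate arrays (triangles) in the 25 nuclear genes, 2 arrays a group. Points left of 0 are lower in shoots; the selenate points rest on values that chose the members, and 12 of the 25 genes reached a signal of 100 on 2 arrays in roots alone and 2 in shoots alone.

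The 4 members in the mitochondrial stretch of chromosome 2 cannot be told apart from transcripts of the mitochondrial genome, which that stretch copies. AT2G07707 had signals of 115 and 161 in control roots, 352 and 319 in selenate roots, 510 and 599 in control shoots and 1968 and 2043 in selenate shoots. AT2G07718, AT2G07751 and AT2G07739 rose 3.54-fold, 1.69-fold and 1.80-fold in roots and 2.49-fold, 2.10-fold and 2.32-fold in shoots. AT2G07707 and AT2G07718 were higher in control shoots than in control roots, by 3.58-fold and 2.23-fold (limma adjusted p = 2.25e-05 and 0.0167). The other 2 were not called: AT2G07751 differed by 0.10 ± 0.29 SE (log2, limma adjusted p = 0.771) and AT2G07739 by 0.54 ± 0.38 SE (0.242). All 4 probe sets carry the array maker's mark for probes shared by several transcripts. The plastid gene rps14, a ribosomal protein gene, gave 81.8 and 25.5 in control roots, 114 and 86.1 in selenate roots, 385 and 602 in control shoots and 960 and 736 in selenate shoots.

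Members without a listed gene made up the largest share. The 47 rose by a median of 2.13-fold in roots, with a range from 1.63-fold to 32.4-fold, and by 2.01-fold in shoots, with a range from 1.64-fold to 6.47-fold. Probe set 251428_at had the largest smaller change of all members. It gave 125 and 123 in control roots and 3753 and 3879 in selenate roots, and 30.8 and 13.8 in control shoots against 263 and 166 in selenate shoots. Probe set 250152_at was next among them, with log2 changes of 1.48 in roots and 2.13 in shoots. In control shoots 26 of the 47 were lower than in control roots and 11 were higher (limma, adjusted p under 0.05), which is 55.3% and 23.4% beside 37.5% and 25.7% of all probe sets tested. Over all 78 members 44 were lower and 17 higher, 56.4% and 21.8%. Of the 78, 26 reached the signal minimum in roots alone and 6 in shoots alone, and among the 46 that reached it in both organs 24 were lower and 15 higher. The 47 were not split in this way. Since the choice of members bears on these organ counts, nothing is read from them.

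Near the limit of 0.7, the lowest named members were AT2G20142, with a smaller change of 0.712, and AT2G20560, with 0.727. Just outside lay AT5G40540, at 0.694 in roots and 0.835 in shoots, and AT2G46600, at 0.693 in roots and 1.555 in shoots. A further 15 probe sets met the limits on the changes but not the signal minimum.

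To set the members beside the pathways they may belong to, 10 lists with 242 loci were drawn up, of which 45 genes that are not members could be tested. Many other loci have no probe set listed for them alone. The wound, touch and jasmonate list has one for 11 of 41 loci, the sulfur-deficiency list for 4 of 21. Whether such loci are among the 47 members without a listed gene could not be checked, so the counts cover the tested genes only. Of these 45 genes, 15 were higher and 1 was lower in selenate roots (limma, adjusted p under 0.05), 33.3% and 2.22%, beside 3.35% and 2.37% of all probe sets tested. In shoots 11 were higher and 1 lower, 24.4% and 2.22%, beside 1.07% and 0.797%. The list medians were 0.29 in roots and 0.19 in shoots, against -0.02 for all probe sets in each organ. The fit shares 1 estimate of spread between the organs, while shoot replicates differed more. The shoot count was 2 without shoot selenate 1, 4 without shoot selenate 2, 7 without shoot control 1, without root control 1 or without root control 2, 6 without root selenate 1 or 2, and 0 when only shoot arrays entered the fit. The lists were chosen with earlier results of these data known, and the counts include BGLU28 in both organs and CML38 in roots, which met the conditions of membership.

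In the wound, touch and jasmonate list the calls were in roots. There 10 of its 11 tested genes rose, with a median log2 change of 3.35, and in shoots 0 were called by limma, with a median of -0.15. The 10 include CML38, which met the conditions of membership, so its root rise is a description. AT1G76640, of the calmodulin-like family, had a log2 change of 5.65 in roots (limma adjusted p = 2.19e-06) and signals of 1.5 to 3.3 on all shoot arrays. ORA47, a transcription factor of the jasmonate response, had 5.09 in roots (limma adjusted p = 8.81e-06) and -0.20 in shoots (0.829). CML38, set aside by name above, was the only gene of the list with a shoot change over 0.7. None of the 11 tested genes is among the members, while the untested loci of the list could not be looked up.

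In the abscisate, cold and dehydration list the rises called were in shoots. There 4 of its 5 tested genes rose, SAG29 (limma adjusted p = 0.00892), COR15A (0.0243), LEA4-5 (0.0298) and COR47 (0.0475). No gene of any list was called in shoots when only shoot arrays entered the fit. In roots 0 rose by limma, while LEA4-5, a protein of late embryogenesis, fell 2.59-fold (limma adjusted p = 0.0228). Its signals were 132 and 151 in control roots, 51.2 and 29.3 in selenate roots, 16.5 and 39.5 in control shoots and 126 and 134 in selenate shoots. In the xenobiotic detoxification list 3 of 6 genes rose in shoots, UGT73C1 and UGT73B5, which are glycosyltransferase genes, and ALDH7B4, an aldehyde dehydrogenase gene. None of the 6 was called in roots, where the median change was 0.06, and UGT73B5 had 0.54 (limma adjusted p = 0.262).

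Of 3 mitochondrial stress genes 2 were called in shoots and 0 in roots (limma). NDB2, an alternative NADH dehydrogenase, and AT5G09570, a small mitochondrial protein with cysteine motifs, rose 2.67-fold and 2.38-fold in shoots (limma adjusted p = 0.00601 and 0.0113). Their root changes were 0.37 (adjusted p = 0.333) and 0.29 (0.556). The small heat-shock gene AT5G51440 is the member that belongs to both this list and the heat-shock list. Of the 3 other heat-shock genes, AT1G53540 and AT2G29500 rose in roots and 0 were called in shoots.

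The sulfur-deficiency list holds 3 tested genes beside the member AT1G12030. BGLU28, a beta-glucosidase gene, met the conditions of membership and was set aside by name, so its rise in both organs (log2 changes of 7.09 and 2.03) is a description. Since members are left out of the 45 genes, few that rose in both organs could remain among them. AT1G04770 rose in roots and fell in shoots, with signals of 744 and 657 in control roots, 1748 and 1622 in selenate roots, 1091 and 1317 in control shoots and 643 and 536 in selenate shoots. AT1G75290 had changes of 1.22 in roots (limma adjusted p = 0.128) and 0.48 in shoots (0.644). Over the whole array 29 probe sets, 0.181% of those tested, were called higher in both organs.

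Of the remaining lists, 1 of 11 glutathione transferase genes rose in each organ, GSTU27 in roots (log2 change 1.31) and GSTU16 in shoots (1.29). GSTU15 had 0.59 in roots (limma adjusted p = 0.481) and 1.46 in shoots (0.0584). No gene was called in the oxidative stress list, with 3 tested, or the proteasome list, with 1. WRKY53, the 1 tested senescence gene, also stands in the wound list. Whether any of these genes responds differently in the organs was not tested.

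**Figure D5:**
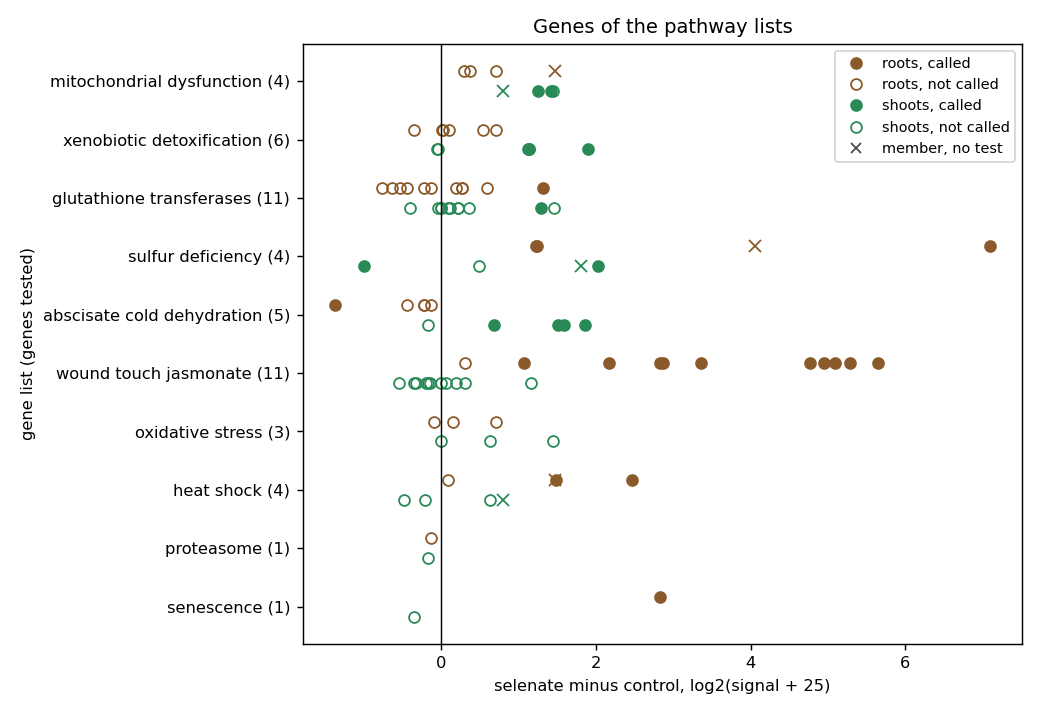
Selenate minus control, as a difference of log2(signal + 25), for the tested genes of 10 lists in roots (brown) and shoots (green); filled circles passed the test over all probe sets (limma, adjusted p under 0.05), open ones did not, and crosses are members, which carry no test. In the wound, touch and jasmonate list 10 of 11 genes, CML38 among them, were called in roots and 0 in shoots. CML38 and BGLU28, which met the conditions of membership but were set aside by name, are drawn as circles.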

How the data were processed

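The authors deposited linear signals, an intensity for each probe set and array, which come from MAS5 per the submitters' processing notes. No version of it is given. The values show that each array was scaled to a mean of 500, leaving out the highest and lowest 2% of probe sets. Low signals carry large relative errors, and detection calls were not used.

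From these signals log2(signal + 25) was computed. The 16053 probe sets other than 64 controls with a signal of at least 100 on 2 of 8 arrays entered a limma 3.58.1 model (R 4.3.3) of the 4 group means with a trend in the variance, which left 4 residual beside 5.12 prior degrees of freedom. P-values were adjusted by Benjamini-Hochberg over all of them and called under 0.05. Contrasts were shoots against roots in controls, the same under selenate as a description, since the rule used those values, and, for genes of the lists, selenate against control in each organ. The procedure was run on simulated data, where only the mean size of the estimated changes had to lie near the true one. False calls in that run are not given here, so it is no check on the calls. Small numbers of arrays limit the precision.

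Gene names follow the platform annotation, brought up to date with RefSeq (TAIR10.1): 13513 probe sets have 1 gene, 503 several and 8730 none. Chromosome 2 loci were set apart where they lay among, or within 50 kb of, loci listed together with a mitochondrial gene. Since no build is given for the probe sets, no coordinates are printed. Roles of genes are textbook background. Promoter sequences and motifs were not analysed here.

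The members and lists were chosen with earlier results of these data known. The naming rule gives signals by array for the 12 members with 1 listed gene whose smaller change is largest, for the 3 with the largest gap between organs each way and for members in a list; those of the other genes and rps14 were added after values were seen. It also names at most 2 members with no listed gene, the 2 nearest genes on each side of the limit, and up to 4 called genes per list and organ. AT1G75290 and GSTU15 were added after their values were seen. Where probe sets share a gene, a list uses the brightest on average.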

Additional observations from a re-analysis of the deposited data

How the results depend on the processing

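The choice of members depends most on the pseudocount. With a pseudocount of 100 in place of 25 the conditions were met by 24 probe sets, all among the 78, and with one of 5 by 113. Single arrays left out gave between 62 and 115 members. Quantile normalization, median centring and other filters gave between 67 and 93. The counts of all members called lower or higher between organs moved by no more than 1.5 times in any setting tried. For the 25 genes, 1 was called higher in control shoots with a pseudocount of 100, and 5 were after quantile normalization over all arrays, median centring or without a variance trend, against 3. In selenate shoots 0 were called higher with a pseudocount of 5, at a minimum of 200, or without both shoot arrays of higher GAPDH ratio, and between 0 and 2 with single arrays left out. Of single organ differences, AT4G18280 and AT3G03270 under selenate became 0.11 and 0.08 with median centring, and AT2G17660 in controls -0.17 without root control 2 and -0.12 without shoot control 1, within a range of -0.17 to 0.29 over single arrays left out; none of these was called in either form. Of the other comparisons for single genes, 932 kept direction and call, 51 lost a call and 11 gained one. In the lists, the 15 genes called higher in roots were between 10 and 15 with single arrays left out, and the 11 in shoots between 2 and 12. The shoot count was 7 with no filter, 0 with only the arrays compared and 3 with array weights. Genes called lower were 0 with a pseudocount of 5 or a minimum of 200 in roots, 2 with one of 100, between 0 and 2 with single arrays left out, 5 without both arrays of higher ratio, and 4 with only root arrays or with array weights; in shoots they were 0 with only shoot arrays or array weights, between 0 and 1 with single arrays left out and 3 without both arrays of higher ratio. The cause of these moves was not tested, though a fit without an array has fewer residual degrees of freedom.

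The labels do not say that equal replicate numbers mark a shared culture. Deviations of same-numbered arrays correlated at 0.339 between the root groups and at -0.485 between the shoot groups. With the replicate number as a block, limma called 6 list genes higher and 0 lower in shoots, and no other count moved by over 1.5 times. With the shoot numbers crossed, a setting chosen after seeing the data, it called 14 higher and 1 lower.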
